A study of Mus musculus with 20 samples.

Results

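The dystrophin glycoprotein complex was measured through 8 of its genes, Dmd, Utrn, Dag1, Sgca, Sgcb, Sgcd, Sspn and Nos1. Its probes were all noncontrol probes that the array files name for one of these genes, 20 of 41174 distinct noncontrol probes, and all 20 passed the filter on dim probes that left 37372. The 20 arrays each held RNA of 1 muscle of 1 male ICR mouse aged 6 months, and the groups were soleus HLS, soleus control, gastrocnemius HLS and gastrocnemius control, with 5 arrays each from 10 mice in all. HLS mice spent 24 h in hind-limb suspension, held by the tail at a head-down tilt of 45° so that the hind limbs bore no weight, and control mice moved freely. No transgene or mutation is named in the labels, which place both muscles of 1 number within a condition in 1 animal.

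Dystrophin links actin under the membrane of the muscle fibre to beta-dystroglycan in the membrane, and alpha-dystroglycan outside binds laminin of the basal lamina through sugar chains. The sarcoglycans and sarcospan sit in the membrane beside dystroglycan and hold the assembly together, and neuronal nitric oxide synthase docks on the inner side through syntrophins. The complex passes force between the fibre and its surroundings, and loss of several of its proteins causes muscular dystrophy. Slow fibres make up much of the soleus, which holds posture, while fast fibres prevail in the gastrocnemius. The comparisons address how the genes of this complex stand after 24 h without load, and how they stand in muscles of unlike fibre type.

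The files give no probe sequences, and all 8 genes had at least 1 promoter window in the RefSeq table of mouse build GRCm38.p6, with 11 windows in all. The 250 bases before the start of Dmd and of Nos1 are shown because the differences of these genes between muscles rest on 10 spots per array. Capitals mark E-boxes, CANNTG, which reads the same way on both strands and is the core bound by myogenic factors such as MyoD. The windows are the first Dmd start in the table (chrX:82948620-82948869, plus strand), the second Dmd start (chrX:85048045-85048294, plus strand) and the Nos1 start (chr5:117866589-117866838, plus strand).
Dmd start 1: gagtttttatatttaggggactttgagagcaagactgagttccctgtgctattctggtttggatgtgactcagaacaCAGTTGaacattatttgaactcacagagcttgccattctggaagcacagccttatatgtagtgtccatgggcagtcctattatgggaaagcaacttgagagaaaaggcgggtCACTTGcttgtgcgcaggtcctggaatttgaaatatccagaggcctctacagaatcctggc
Dmd start 2: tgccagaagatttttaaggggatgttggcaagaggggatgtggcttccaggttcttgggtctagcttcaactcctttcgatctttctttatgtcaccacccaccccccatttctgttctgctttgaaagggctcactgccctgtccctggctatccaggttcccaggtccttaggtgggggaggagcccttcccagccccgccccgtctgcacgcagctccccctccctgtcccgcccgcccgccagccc
Nos1: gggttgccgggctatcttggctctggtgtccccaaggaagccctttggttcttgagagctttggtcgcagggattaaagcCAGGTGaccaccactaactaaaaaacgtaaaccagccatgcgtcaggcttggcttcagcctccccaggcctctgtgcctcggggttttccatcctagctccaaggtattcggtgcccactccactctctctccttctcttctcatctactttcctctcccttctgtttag
The first Dmd window held 2 E-boxes, the second 0 and the Nos1 window 1. An E-box was present in 8 of the 11 member windows and in 66.2% of all 32851 windows of that length. The first Dmd window also held 1 CArG box, the core bound by serum response factor, and 1 MEF2 box, the core bound by MEF2 factors. Each was found in 1 of the 11 member windows, against 1.47% of all windows for the CArG box and 2.92% for the MEF2 box, searched on both strands, and these boxes did not overlap each other or an E-box. These matches describe the letters of the windows.

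Levels are log2 of the spot intensity relative to the 75th percentile of the same array, so a value of 0 stands at that percentile, and levels of different probes are not compared. The probe of Nos1 and the brightest probe of Dmd were printed at 10 spots each and the other 18 probes at 1 spot. Each of 16 probes was well above background on all 20 arrays, none was saturated on any array, and 7 of the 20 carry the accession of a cDNA clone and 13 that of a curated mRNA. Where a gene had several probes, the brightest is the main one. Within an array, the 10 spots of the Nos1 probe had a median SD of 0.17 and those of the Dmd probe 0.09 (log2), against SDs between arrays of a group of 0.08 to 0.18 and 0.11 to 0.16.

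The percentile of intensity ranged from 385 to 735 over the arrays, and 80.5% to 93.0% of probes were well above background. All 9 skeletal muscle markers were measured, and their mean log2 level in soleus was 7.19 to 8.16 after HLS against 7.22 to 7.90 in controls, and in gastrocnemius 7.45 to 7.81 after HLS against 7.50 to 7.79 in controls. One array stood apart: soleus HLS 1 had a mean level of 5.12 over the 8 slow fibre markers, against 6.66 to 7.27 on the other soleus HLS arrays, and of 8.73 over the 8 fast fibre markers, against 6.88 to 7.93. The added spike-in RNA had a log2 level in soleus of 1.78 ± 0.19 after HLS against 1.51 ± 0.05 in controls, and in gastrocnemius of 1.79 ± 0.14 after HLS against 2.55 ± 0.08 in controls (SD, n = 5), so the percentile itself moved against the spike-ins between groups. Arrays lay on 6 slides scanned on 3 days. Within gastrocnemius HLS the spike-in level was 2.02 on the 1 array of day 1 and 1.69 to 1.80 on the arrays of day 2. Within soleus HLS it was 1.58 to 1.77 on day 2, and 2.02 and 1.92 on day 3. The part of scan day in the spike-in shift between groups was not tested. The labels call the replicates of a group independent, so p-values measure the spread between these animals. Soleus HLS shared slide 5 with soleus control (3 and 1 arrays), gastrocnemius HLS shared slide 2 with gastrocnemius control (1 and 3 arrays), and no slide held both muscles.

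After 24 h of suspension, no gene of the complex passed the test in soleus. Of the 20 probes, 0 were higher and 0 were lower in soleus HLS than in soleus control (limma, adjusted p below 0.05), while 2.21% of all 37372 probes were higher and 3.21% lower. At an unadjusted p below 0.05 there were 3 of 20 member probes, against 17.5% of all probes. The differences of the 20 probes, HLS minus control, lay between -0.44 and 0.46 (log2), with 11 above 0, 9 below 0 and a median of 0.04, against a median of 0.05 over all probes. In whole muscle, fewer cells of a type and less RNA per cell cannot be told apart.

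Sspn, which encodes the membrane protein sarcospan, and Utrn, which encodes utrophin, the dystrophin relative found mainly at the neuromuscular junction and in vessels of adult muscle, had the lowest p among the main probes. Sspn stood at 3.01, 3.61, 3.58, 3.85 and 2.95 in soleus HLS and at 3.77, 3.87, 3.65, 3.67 and 3.89 in soleus control. Of the 5 HLS arrays, 4 lay below every control, soleus HLS 1 and 5 farthest, and soleus HLS 4 lay among the controls. The difference was -0.37 ± 0.15 (log2, SE, adjusted p = 0.18 by limma), and -0.50 between the 3 HLS arrays and the 1 control array of slide 5, or -0.30 there without soleus HLS 1. The main Utrn probe, named for a cDNA clone, stood at 1.22, 1.18, 1.25, 0.98 and 0.73 in soleus HLS and at 1.32, 1.13, 1.40, 1.50 and 1.61 in soleus control, and 4 of the 5 controls were above every HLS array. Its difference was -0.32 ± 0.13 (log2, SE, adjusted p = 0.18), and -0.39 on slide 5. The probes named for the curated Utrn mRNA gave 0.06, 0.17 and -0.06 in soleus. The other cDNA clone probes gave 0.02 for A_52_P504624 and -0.44 for A_52_P557113, the dimmest, so the Utrn probes disagreed. The neuromuscular junction marker list, with 8 of 9 genes measured, had mean levels of 0.01 to 0.14 in soleus HLS and -0.26 to -0.04 in soleus control, and the endothelial list, with 8 of 8 measured, 1.19 to 1.69 and 1.50 to 1.85. Their part in the Utrn values was not tested.

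The other main probes gave intervals that held 0. Dmd, which encodes dystrophin, stood at 1.12, 1.30, 1.46, 1.46 and 1.17 in soleus HLS and at 1.19, 0.98, 1.07, 1.28 and 1.28 in soleus control, with the groups overlapping. Its difference of 0.14 had a 95% interval of -0.07 to 0.36 (log2, limma). Nos1 stood at -1.03, -1.26, -1.06, -1.20 and -0.79 in soleus HLS and at -1.29, -0.98, -1.10, -1.22 and -1.30 in soleus control, a difference of 0.11 with an interval of -0.09 to 0.32. Dag1, which encodes both dystroglycan subunits, spread over 0.42 to 1.69 in soleus HLS and 0.90 to 1.87 in soleus control and had a difference of -0.37 with an interval of -0.82 to 0.08. Sgca, which encodes alpha-sarcoglycan, gave 0.46 with an interval of -0.08 to 0.999, and its controls alone ranged from 2.46 to 4.25. On slide 5, with its 1 control array, the Sgca difference had the opposite sign, at -0.43, or -0.73 without soleus HLS 1. Sgcb and Sgcd, which encode beta- and delta-sarcoglycan, gave -0.24 and -0.13 with adjusted p of 0.61 and 0.50. Leaving out soleus HLS 1 or any other single array left the count of member calls at 0.

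**Figure D1:**
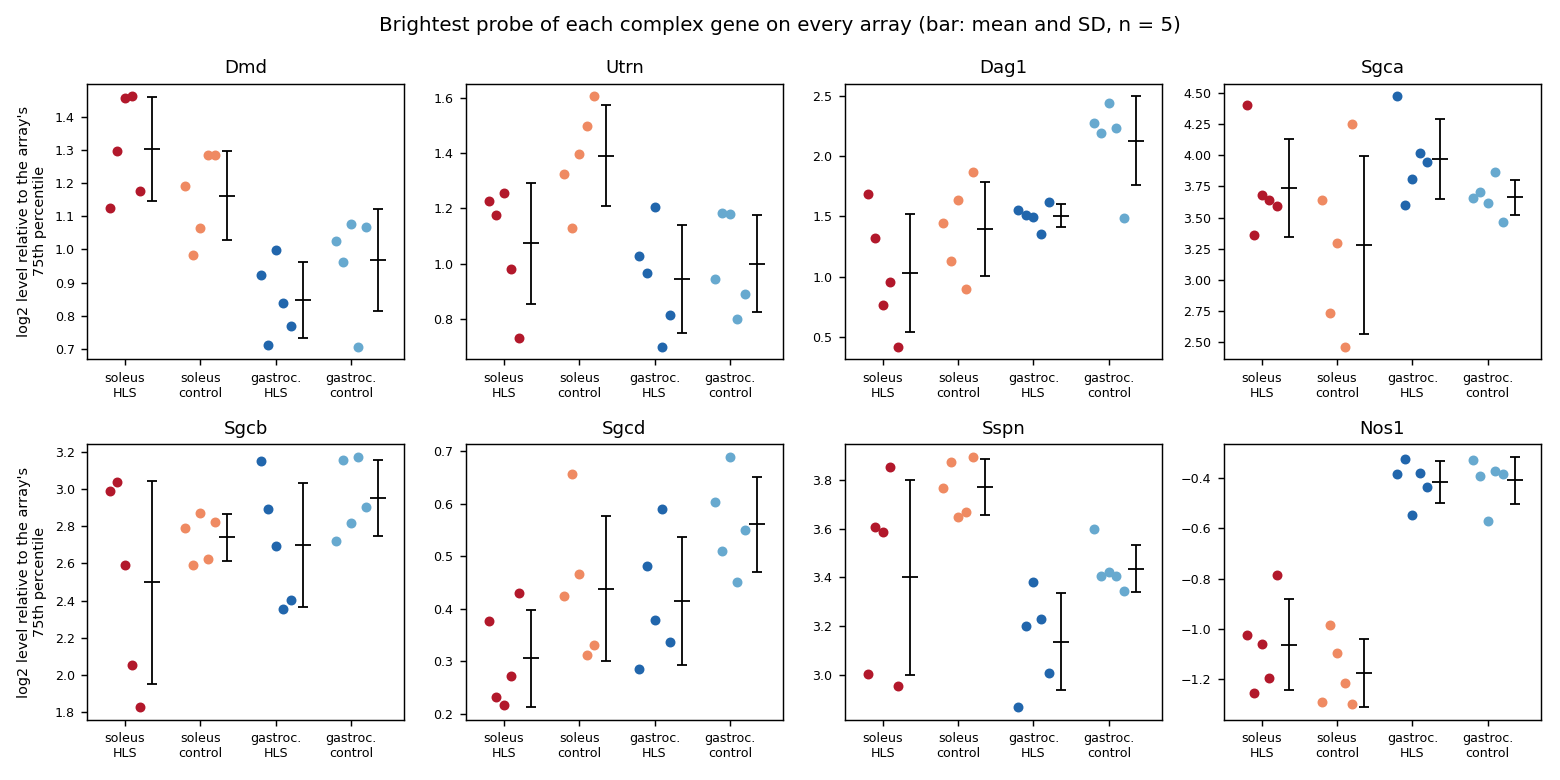
Log2 level of the brightest probe of each of the 8 genes relative to the array's 75th percentile (y axis, a separate scale per gene) in soleus HLS, soleus control, gastrocnemius HLS and gastrocnemius control (x axis). Each point is 1 array and the bar is the mean with its SD (n = 5). All Nos1 values of both soleus groups lie at or below -0.79 and all gastrocnemius values at or above -0.57.

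In gastrocnemius, too, 0 of 20 member probes were higher and 0 lower after suspension (limma, adjusted p below 0.05), against 1.09% higher and 1.74% lower over all probes. At an unadjusted p below 0.05 there were 3 of 20 members, against 14.3% of all probes. The differences ran from -0.62 to 0.38 (log2) with a median of 0.06, against 0.01 over all probes. When only the 10 gastrocnemius arrays were fitted, 1 member probe passed, the Utrn probe A_52_P257071.

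Dag1 had the lowest difference. Its main probe stood at 1.56, 1.51, 1.49, 1.36 and 1.62 in gastrocnemius HLS and at 2.28, 2.20, 2.44, 2.24 and 1.49 in gastrocnemius control. Gastrocnemius control 5 lay within the HLS values and the other 4 controls lay above all of them. The difference was -0.62 ± 0.22 (log2, SE, adjusted p = 0.15 by limma), and -0.50 between the 1 HLS and the 3 control arrays of slide 2. The second Dag1 probe stood at -0.55, -0.34, -0.21, -0.53 and -0.38 in gastrocnemius HLS and at -0.16, -0.06, 0.01, -0.13 and -0.31 in gastrocnemius control, with a difference of -0.27 ± 0.11 (adjusted p = 0.21). The spike-in difference between gastrocnemius HLS and gastrocnemius control was -0.76 (log2), a shift larger in size than either Dag1 difference. It was also larger in size than every other negative member difference in gastrocnemius, so scaling to the spike-ins would turn their direction. Such scaling was not among the alternatives run, and the count of passing members was not tested under it.

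The Utrn probe A_52_P257071, named for the curated mRNA, stood at 0.16, 0.33, 0.49, 0.21 and 0.18 in gastrocnemius HLS and at -0.03, -0.06, -0.18, -0.10 and -0.18 in gastrocnemius control, with no overlap. Its difference was 0.38 ± 0.12 (log2, SE, adjusted p = 0.093 by limma), and 0.32 on slide 2. The main Utrn probe did not share it, with -0.06 ± 0.13. The fit of the 10 gastrocnemius arrays alone gave this probe an adjusted p of 0.034.

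For the remaining main probes in gastrocnemius, Sspn stood at 2.87, 3.20, 3.38, 3.23 and 3.01 in gastrocnemius HLS and at 3.60, 3.40, 3.42, 3.41 and 3.34 in gastrocnemius control, with 1 HLS value inside the controls, and had a difference of -0.30 ± 0.15 (adjusted p = 0.37), and of -0.52 on slide 2. Nos1 stood at -0.38, -0.32, -0.55, -0.38 and -0.44 in gastrocnemius HLS and at -0.33, -0.39, -0.57, -0.37 and -0.38 in gastrocnemius control. Its difference was -0.01 with a 95% interval of -0.21 to 0.20 (log2, limma). Dmd gave -0.12 with an interval of -0.33 to 0.09. Sgca gave 0.31, Sgcb -0.25 and Sgcd -0.15, with adjusted p of 0.67, 0.66 and 0.52. The Sgcb probes A_51_P433960 and A_52_P144871 had the opposite sign, at 0.21 and 0.10 (limma adjusted p = 0.53 and 0.91). On A_51_P433960, named for the curated mRNA, values of 1.95 to 2.39 in gastrocnemius HLS lay above those of 1.82 to 1.94 in gastrocnemius control.

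**Figure D2:**
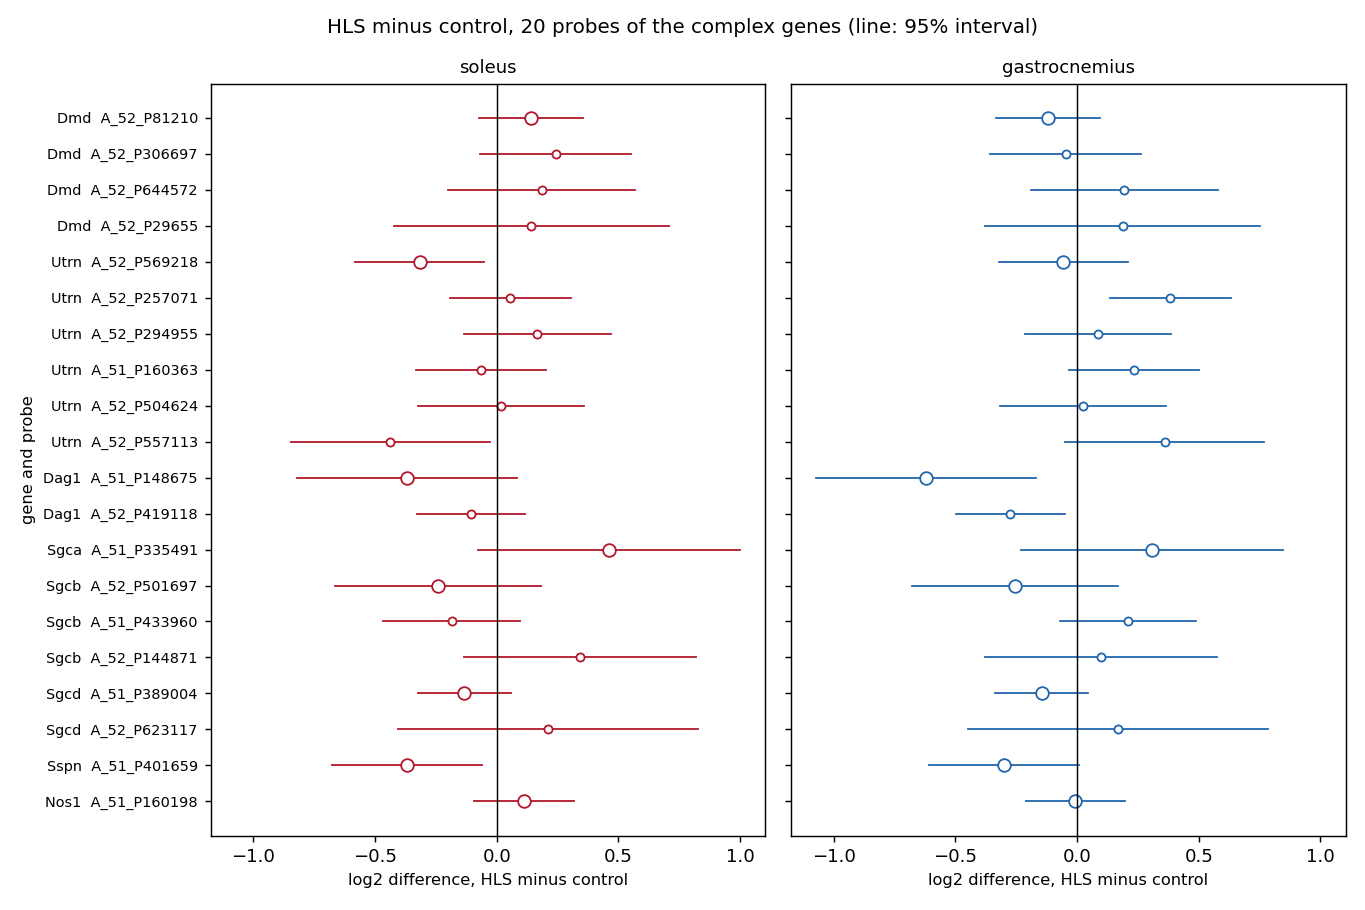
Log2 difference, HLS minus control (x axis), for all 20 probes of the 8 genes (y axis) in soleus at the left and gastrocnemius at the right. Lines are 95% intervals from limma, large circles mark the brightest probe of a gene, and all circles are open because 0 probes passed an adjusted p of 0.05 in either muscle.

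The response of soleus minus that of gastrocnemius was also tested. No member probe passed in either direction (limma), against 0.00268% of all probes higher and 0.0294% lower, and 1 of 20 members had an unadjusted p below 0.05, against 6.04% of all probes. That probe was the dimmest Utrn probe, A_52_P557113, named for a cDNA clone, at -0.80 ± 0.28 (log2, SE, adjusted p = 0.63). It was not well above background on every gastrocnemius array. Among the main probes the difference of responses was 0.26 ± 0.15 for Dmd, -0.26 ± 0.18 for Utrn, 0.25 ± 0.31 for Dag1 and 0.12 ± 0.14 for Nos1. For Sgca, Sgcb, Sgcd and Sspn it lay between -0.07 and 0.15, with SEs of 0.13 to 0.37. The spike-in difference in this comparison was 1.03 (log2), larger in size than every member difference. Scaling to the spike-ins would thus turn every positive member difference of responses and make every negative one larger in size. Such scaling was not run, so the count of passing members was not tested under it.

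The muscles themselves differed in several members, and Nos1 had the lowest p in both conditions. In HLS animals 1 of 20 member probes was higher and 3 were lower in soleus than in gastrocnemius, against 11.6% higher and 19.0% lower over all probes. In control animals 2 of 20 were higher and 4 lower, against 11.1% and 22.0%. Each condition's lower count includes an Sgcd probe that was not well above background on most soleus arrays. Among the 16 probes well above background on all 20 arrays, 1 was higher and 2 were lower in HLS animals, and 1 was higher and 3 were lower in controls. Counts of this size are near the background and are not a result about the members. Members at an unadjusted p below 0.05 numbered 5 after suspension, against 41.6% of all probes, and 8 in controls, against 43.5%.

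Nos1 encodes neuronal nitric oxide synthase, which in rat muscle has been described mainly in fast fibres. All 10 soleus values given above lay below all 10 gastrocnemius values, the highest soleus value being -0.79 and the lowest gastrocnemius value -0.57. In HLS animals it averaged -1.07 ± 0.18 in soleus and -0.41 ± 0.08 in gastrocnemius (SD, n = 5), a difference of -0.65 ± 0.10 (log2, SE, adjusted p = 8.4e-05 by limma), or 1.57-fold lower in soleus. In control animals it averaged -1.18 ± 0.14 in soleus and -0.41 ± 0.09 in gastrocnemius (SD, n = 5), a difference of -0.77 ± 0.10 (adjusted p = 1.3e-05), or 1.71-fold lower. Within animals, soleus was lower than gastrocnemius in 5 of 5 HLS animals, with differences of -0.93 to -0.35, and in 5 of 5 control animals, with differences of -0.97 to -0.53.

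The Nos1 difference passed the threshold under every alternative that was run, and scaling to the spike-ins was not among them. Between the 3 soleus and 4 gastrocnemius HLS arrays scanned on 1 day it was -0.69. No slide held both muscles, so slide and muscle cannot be told apart in either condition. In controls all gastrocnemius arrays were scanned on day 1 and all soleus arrays on day 2, so scan day and muscle cannot be told apart there by the control arrays. A fit with scan day as a block gave Nos1 -0.73 in controls, with the effect of the day taken from 1 gastrocnemius HLS array of day 1 and 4 of day 2. The spike-in RNA differed by -0.01 between soleus and gastrocnemius of HLS animals and by -1.04 in controls. In controls that shift was larger in size than the Nos1 difference and than every other negative member difference apart from that of the dim Sgcd probe, so scaling to the spike-ins would turn their direction. The mean level of the 8 fast fibre markers in HLS animals was 6.88 to 8.73 in soleus against 8.02 to 8.44 in gastrocnemius, and in control animals 6.89 to 7.95 in soleus against 8.13 to 8.42 in gastrocnemius. Of these fast fibre markers, 3 were higher and 3 lower in soleus of HLS animals, and 2 were higher and 4 lower in controls. The 8 slow fibre markers were all higher in soleus in both conditions, and the part of fibre type in the Nos1 difference was not tested.

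Dmd was higher in soleus of HLS animals. With the levels given above, soleus HLS did not overlap gastrocnemius HLS, whose arrays stood at 0.92, 0.71, 1.00, 0.84 and 0.77, and the difference was 0.45 ± 0.10 (log2, SE, adjusted p = 0.0026 by limma), or 1.37-fold. It was positive in 5 of 5 HLS animals and was 0.46 within 1 scan day. In control animals, where gastrocnemius arrays stood at 1.03, 0.96, 1.08, 0.71 and 1.07 and overlapped the soleus arrays, the difference was 0.19 ± 0.10 (adjusted p = 0.16). The change between these conditions is the difference of responses given above, 0.26 with an adjusted p of 0.86, so a passing test in HLS animals alone does not show that the conditions differ. The other 3 Dmd probes, 2 of them named for cDNA clones, gave differences of -0.33 to 0.14 in HLS animals and of -0.34 to 0.18 in controls and did not pass. One of them, A_52_P306697, passed as lower in soleus of controls without soleus control 1 or gastrocnemius control 4, opposite in direction to the main probe.

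Utrn gave calls in both directions depending on the probe. Its main probe was higher in soleus of control animals, at 1.32, 1.13, 1.40, 1.50 and 1.61 in soleus against 0.95, 1.18, 1.18, 0.80 and 0.89 in gastrocnemius, with 1 soleus value inside the gastrocnemius range, a difference of 0.39 ± 0.13 (log2, SE, adjusted p = 0.023). This call was lost without soleus control 4 or 5 or without gastrocnemius control 4 or 5 (adjusted p 0.051 to 0.062), and with quantile normalization, where it gave 0.28. In HLS animals the same probe gave 0.13 ± 0.13 (adjusted p = 0.47). Of 8 endothelial markers, 2 were higher in soleus of HLS animals and 5 in soleus of controls, with none lower. Of 8 measured neuromuscular junction markers, 1 was higher and 3 were lower in HLS animals, and 1 was higher and 4 were lower in controls. All 6 adipocyte markers were higher in soleus in both conditions, with median differences of 1.38 in HLS animals and 1.73 in controls (log2). The part of these cell types in the Utrn values was not tested. The dimmest Utrn probe, A_52_P557113, was also higher in soleus of control animals, by 0.61 ± 0.20 (adjusted p = 0.023), and lost its call without soleus control 4 or gastrocnemius control 4 (adjusted p 0.067 and 0.072) and with another background correction, where it gave 0.23. This probe was well above background on all soleus arrays but on 4 of 5 gastrocnemius HLS and 3 of 5 gastrocnemius control arrays. The cDNA clone probe A_52_P504624 was lower in soleus, with differences of -0.58 ± 0.16 in HLS animals and -0.57 ± 0.16 in control animals (adjusted p = 0.011 in both), and its call was lost in HLS animals under another background correction, at -0.24, and in controls under quantile normalization, at -0.31. The 3 probes named for the curated Utrn mRNA did not pass in either condition, with differences of -0.14 to 0.21 in HLS animals and 0.13 to 0.20 in control animals. With scan day as a block, no Utrn probe kept its call in control animals.

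Dag1 was lower in soleus of control animals on its main probe. The levels were 1.45, 1.13, 1.64, 0.90 and 1.87 in soleus against 2.28, 2.20, 2.44, 2.24 and 1.49 in gastrocnemius, where gastrocnemius control 5 lay inside the soleus values, and the difference was -0.73 ± 0.22 (log2, SE, adjusted p = 0.014 by limma). This is smaller in size than the spike-in shift of -1.04 in that comparison, so its direction would turn with spike-in scaling. In HLS animals it was -0.48 ± 0.22 (adjusted p = 0.10), -0.64 with an adjusted p of 0.024 without soleus HLS 1, and -0.59 with an adjusted p of 0.032 under quantile normalization. The second Dag1 probe gave 0.03 in HLS animals and -0.14 in control animals and did not pass. With scan day as a block, the main Dag1 probe lost its call in control animals.

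Among the sarcoglycans, the dim Sgcd probe A_52_P623117, named for a cDNA clone, was well above background on 1 of 5 soleus HLS, 4 of 5 gastrocnemius HLS, 2 of 5 soleus control and 3 of 5 gastrocnemius control arrays. It passed the filter on dim probes through gastrocnemius HLS alone, the group where it was highest, so its calls between muscles are not read as a result. It stood at -4.46, -4.37, -4.83, -4.04 and -3.58 in soleus and -2.90, -2.17, -3.07, -3.42 and -3.23 in gastrocnemius of HLS animals. In control animals it stood at -3.49, -4.20, -5.29, -4.36 and -5.00 in soleus and -2.65, -2.99, -3.38, -3.38 and -3.23 in gastrocnemius. The measured means differed by -1.30 in HLS animals and -1.34 in control animals (log2), and by -0.42 and -0.47 with another background correction. The main Sgcd probe, on the curated mRNA, did not pass, at -0.11 ± 0.09 in HLS animals and -0.12 ± 0.09 in control animals. Sgca and Sgcb did not pass on any probe, with main differences of -0.23 and -0.20 in HLS animals and of -0.38 and -0.21 in control animals, except that Sgca in controls gave -0.63 (adjusted p = 0.042) without soleus control 5. Sspn gave 0.26 ± 0.15 in HLS animals and 0.33 ± 0.15 in control animals (adjusted p = 0.19 and 0.088). In controls it passed with normexp background correction, at 0.41 (adjusted p = 0.030), and when only the control arrays were fitted, at 0.33 (adjusted p = 0.024). In HLS animals it gave 0.38 (adjusted p = 0.047) without soleus HLS 5, and in controls its 5 soleus values of 3.65 to 3.89 lay above its 5 gastrocnemius values of 3.34 to 3.60.

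**Figure D3:**
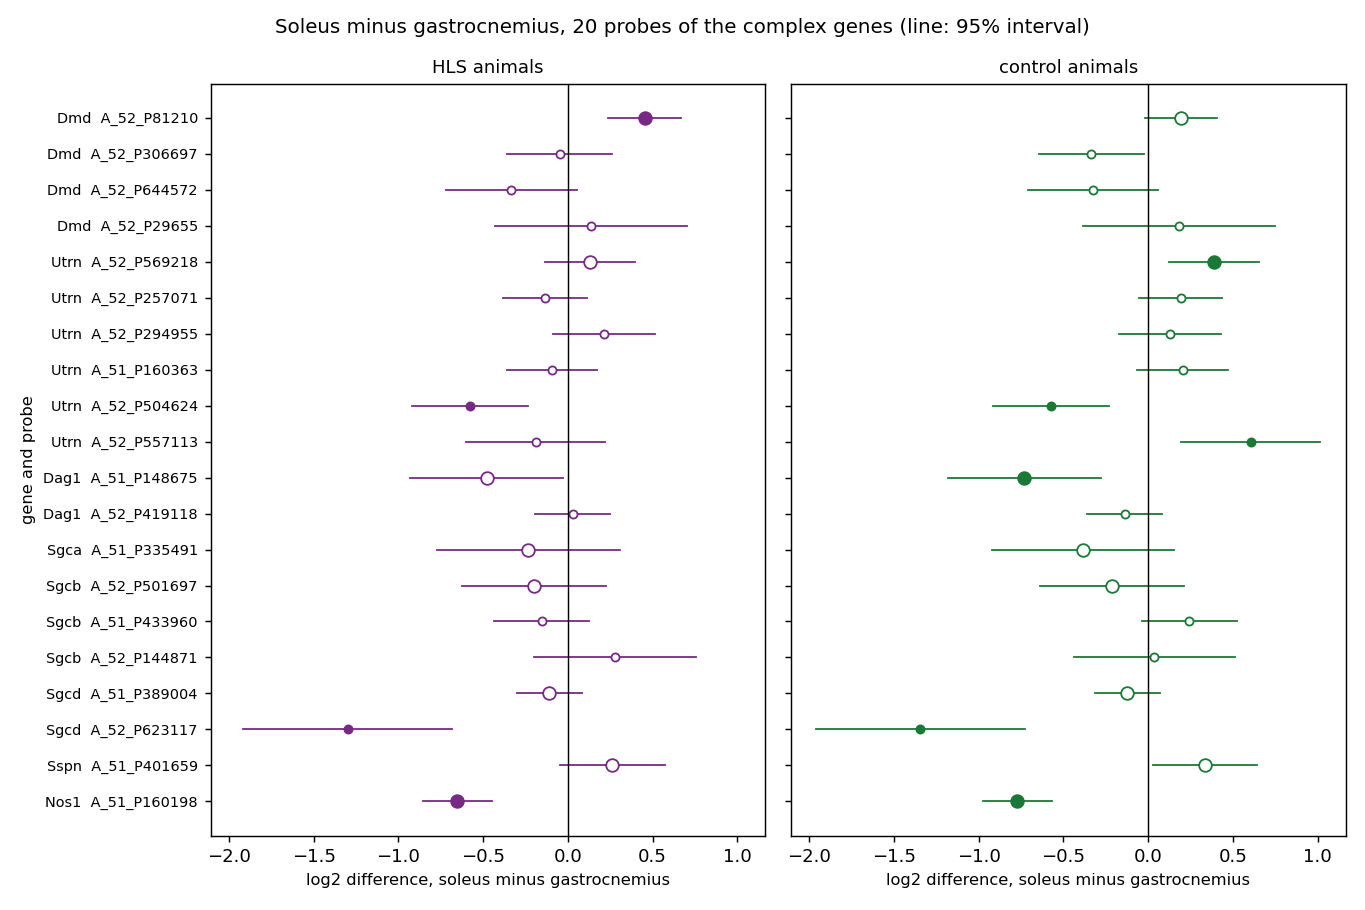
Log2 difference, soleus minus gastrocnemius (x axis), for all 20 probes of the 8 genes (y axis) in HLS animals at the left and control animals at the right. Lines are 95% intervals from limma, large circles mark the brightest probe of a gene and filled circles an adjusted p below 0.05, which 4 probes reached in HLS animals and 6 in control animals. Nos1 lies at -0.65 in HLS animals and -0.77 in control animals, and the filled circle of the Sgcd probe A_52_P623117 rests on readings that were not well above background on most soleus arrays.

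Probes of 1 gene often disagreed from array to array. As a description over the 20 arrays, pairs of probes of 1 gene had a Pearson r of -0.51 to 0.40 for the 6 pairs of Dmd, -0.53 to 0.50 for the 15 pairs of Utrn and -0.49 to 0.52 for the 3 pairs of Sgcb. The single pairs of Dag1 and Sgcd had r of 0.62 and 0.37. A value for Dmd, Utrn or Sgcb is therefore a value of the named probe. A dystrophin entry listed under another name in the files, and so not counted here, gave differences of -0.28 and 0.25 after suspension in soleus and gastrocnemius and did not pass (adjusted p = 0.66 and 0.76). Between muscles this entry gave -0.09 in HLS animals and 0.44 in control animals (limma adjusted p = 0.83 and 0.21). With an SE of 0.27, this entry cannot settle whether it shares the higher soleus level of the main Dmd probe in HLS animals.

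Lists of genes around the complex were set beside its members, each gene by its brightest probe. Of 17 genes for enzymes that build the laminin-binding sugars of alpha-dystroglycan, 0 rose and 3 fell in soleus HLS and 0 rose and 1 fell in gastrocnemius HLS (limma), with medians of 0.03 and -0.16 (log2) over the 17, against 0.05 and 0.01 over all probes. Over all probes 2.21% rose and 3.21% fell in soleus HLS, and 1.09% rose and 1.74% fell in gastrocnemius HLS. Gmppb, which makes the mannose donor used at the start of the sugar chain, fell in soleus, with a difference of -0.54 ± 0.09 (log2, SE, adjusted p = 0.0011). A fixed block for slide gave it -0.54 with an adjusted p of 0.54, and no call of the lists in soleus or gastrocnemius remained under it. Between muscles, 1 of the 17 was higher and 3 were lower in soleus in each condition, against 11.6% higher and 19.0% lower over all probes in HLS animals and 11.1% and 22.0% in controls, so these counts are near the background and are not a result about the list. B3galnt2, which extends the core of the sugar chain, was lower in soleus, with differences of -0.92 ± 0.26 in HLS animals and -1.17 ± 0.26 in control animals. Soleus HLS 1, at 2.87, lay inside the gastrocnemius HLS values of 2.19 to 2.90, while the other 4 soleus HLS arrays stood at 1.02 to 1.29, and without it the difference was -1.25. With scan day as a block the B3galnt2 call was lost in HLS animals, at -0.54 (adjusted p = 0.20). No call of this list remained in controls under that block. Pomt1, which attaches the starting mannose, was also lower, with -0.56 in HLS animals and -0.58 in control animals. Pomk, a kinase of the core mannose, was lower in soleus of control animals (-0.48 ± 0.15), a call lost without gastrocnemius control 3 (adjusted p = 0.063). The Pomt1 and Pomk differences in controls were smaller in size than the spike-in shift of -1.04, so spike-in scaling would turn them. The B3galnt2 difference in controls was only slightly larger in size than that shift.

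Of 26 partner genes of the complex, 1 rose and 1 fell in soleus HLS, against 2.21% and 3.21% over all probes. Lama5 was at 0.48 ± 0.14 and Lama4 at -0.59 ± 0.17 (log2, SE, adjusted p = 0.049 and 0.039), both encoding laminin alpha chains. The Lama5 call was lost without any 1 soleus array other than soleus control 5 (adjusted p 0.055 to 0.12), and the Lama4 call without any 1 of soleus HLS 1, 4 and 5 and soleus control 3, 4 and 5 (adjusted p 0.057 to 0.12). In gastrocnemius HLS 1 rose and 0 fell, against 1.09% and 1.74% over all probes, namely Sync, which encodes syncoilin, a filament protein that binds dystrobrevin, at 0.67 ± 0.16 (adjusted p = 0.022), lost without gastrocnemius HLS 1 or 5 or gastrocnemius control 5 (adjusted p 0.060 to 0.070). Between muscles, 5 of 26 partners were higher and 3 lower in soleus of HLS animals, and 4 were higher and 2 lower in controls. Over all probes the shares were 11.6% higher and 19.0% lower in HLS animals, and 11.1% and 22.0% in controls. These few calls are not read as a result about the list. Sntg1, which encodes gamma-1-syntrophin, was lower in soleus, with differences of -1.32 ± 0.19 in HLS animals and -1.13 ± 0.19 in control animals (adjusted p = 5.3e-05 and 0.00017). Synm, which encodes synemin, a filament protein that binds dystrophin, was lower too, with -0.95 ± 0.17 and -1.09 ± 0.17. Pgm5, which encodes the adhesion protein aciculin, was higher by 0.75 ± 0.17 and 0.73 ± 0.17, and Agrn, which encodes the dystroglycan ligand agrin, by 0.52 ± 0.14 and 0.57 ± 0.14. With scan day as a block, Sntg1, Synm, Pgm5 and Agrn lost their calls in controls (limma adjusted p = 0.053, 0.12, 0.28 and 0.27). The spike-in shift of -1.04 in controls was nearly as large as the Sntg1 and Synm differences there. Lamb1, a laminin beta chain gene, was lower in soleus of HLS animals (-0.42 ± 0.13), and Ank3, which encodes the dystrophin-binding ankyrin-G, was higher in controls (0.66 ± 0.14).

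Of 9 measured genes among 10 of nitric oxide and cGMP signalling, 0 rose and 2 fell in soleus HLS and 0 rose and 1 fell in gastrocnemius HLS, against 2.21% rising and 3.21% falling over all probes in soleus and 1.09% and 1.74% in gastrocnemius. Dynll1, which encodes a dynein light chain known to bind neuronal nitric oxide synthase, averaged 3.39 ± 0.26 in soleus HLS and 4.44 ± 0.23 in soleus control (SD, n = 5), a difference of -1.05 ± 0.16 (log2, SE, adjusted p = 0.00033), or -0.64 (adjusted p = 0.76) with slide as a fixed block. In gastrocnemius it gave -0.64 ± 0.16 (adjusted p = 0.033), which was lost without any 1 of gastrocnemius HLS 1, 4 and 5 and gastrocnemius control 2, 3, 4 and 5 (adjusted p 0.056 to 0.097), and the spike-in shift of -0.76 in that comparison was larger in size, so spike-in scaling would turn its direction. Prkg1, the cGMP-dependent kinase of smooth muscle and other cells, averaged -0.60 ± 0.39 in soleus HLS and 0.66 ± 0.47 in soleus control (SD, n = 5), a difference of -1.26 ± 0.23 (adjusted p = 0.0015), or -1.98 (adjusted p = 0.059) with slide as a fixed block. The smooth muscle list, with 6 of 6 genes measured, had mean levels of 2.13 to 2.83 in soleus HLS and 2.57 to 3.48 in soleus control, and its part in the Prkg1 difference was not tested.

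Between muscles, 1 gene of this list was higher and 1 lower in soleus of HLS animals and 2 were higher and 1 lower in controls, against 11.6% and 19.0% over all probes in HLS animals and 11.1% and 22.0% in controls. Nos2, the inducible nitric oxide synthase, was lower in soleus, with differences of -0.54 ± 0.14 in HLS animals and -0.51 ± 0.14 in control animals, but with another background correction 0 genes of this list passed in HLS animals, and the difference in controls was smaller in size than the spike-in shift of -1.04, so spike-in scaling would turn it. Nos3, the endothelial synthase, was higher in soleus of HLS animals by 0.28 ± 0.10 (adjusted p = 0.031), lost without any 1 HLS array other than soleus HLS 5 and gastrocnemius HLS 1 (adjusted p 0.052 to 0.069). In controls Nos1ap, whose product is an adaptor of Nos1, was higher by 0.91 ± 0.18 (adjusted p = 0.0009), with mean levels of -2.47 in soleus and -3.38 in gastrocnemius. Its difference ran from 0.37 to 1.18 over the alternatives, and the call was lost with scan day as a block (limma adjusted p = 0.58). The Nos1ap probe was dim and was not well above background on every array. Prkg1 was higher in controls by 0.61 ± 0.23 (adjusted p = 0.041), lost without any 1 of soleus control 3 and 5 and gastrocnemius control 1, 4 and 5 (adjusted p 0.078 to 0.13). No gene of the 3 lists passed in the difference of responses (limma), where 1 of 26, 0 of 17 and 1 of 9 had an unadjusted p below 0.05, the lowest being Sync at -0.65 ± 0.22 and Prkg1 at -0.76 ± 0.32.

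**Figure D4:**
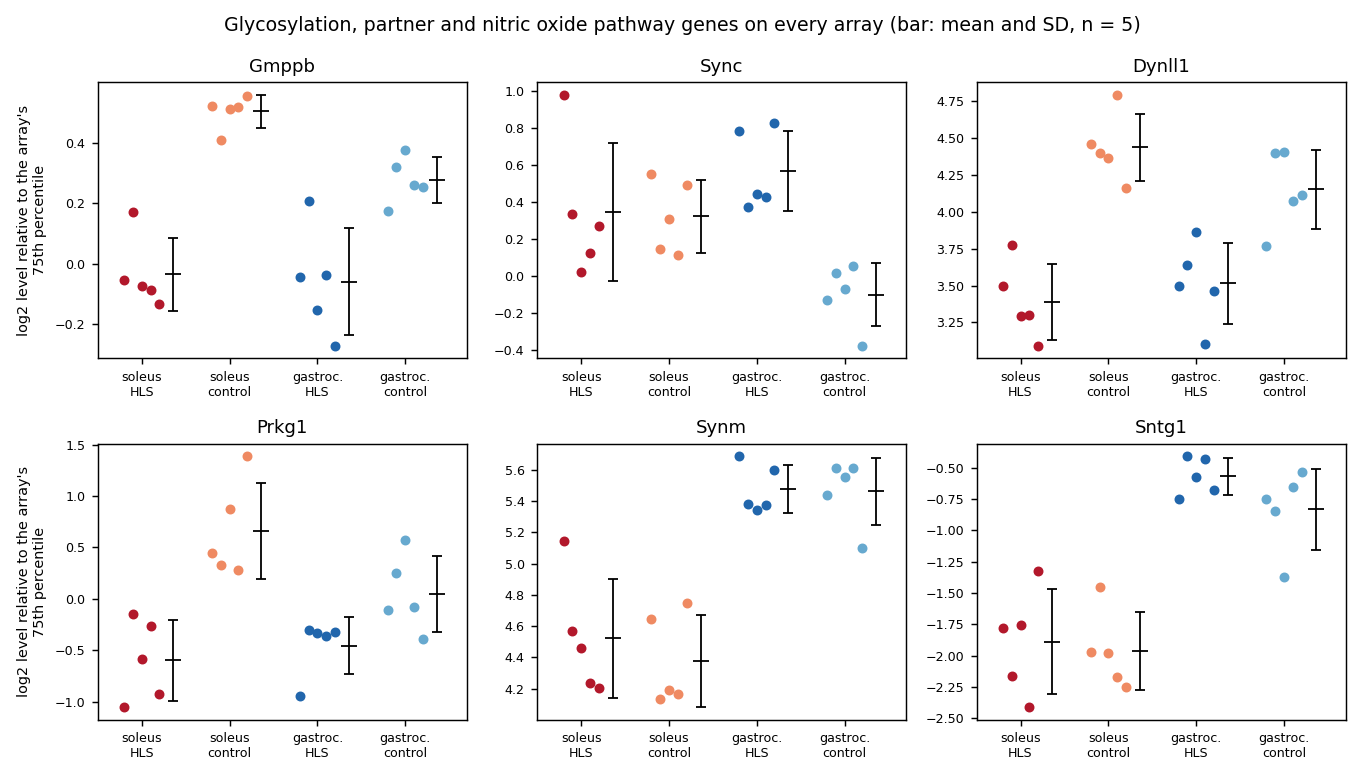
Log2 level relative to the array's 75th percentile (y axis, a separate scale per gene) of Gmppb, Sync, Dynll1, Prkg1, Synm and Sntg1 in soleus HLS, soleus control, gastrocnemius HLS and gastrocnemius control (x axis). Points are arrays and bars the mean with its SD (n = 5). Dynll1 averages 3.39 in soleus HLS and 4.44 in soleus control.

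The genes whose levels ran most closely with each member over the 20 arrays are given as a description, since the arrays share muscles, slides and animals. Nos1 was closest to Fam13c (r = 0.98), 4930520O04Rik and Vmn1r16 (r = 0.98 and 0.97). Utrn was closest to the endothelial genes Emcn and Plvap (r = 0.87 and 0.86) and to 4930402H24Rik. Dmd was closest to Ppcdc, Mgst1 and 5033421B08Rik (r = 0.87 to 0.89), Dag1 to 1110011C06Rik, Ppif and Ldb3 (r = 0.94 to 0.95), and Sgca to Ldhd, Cuedc1 and 8430406H22Rik (r = 0.90 to 0.91). Sgcb was closest to 0610009B22Rik, Relt and Lamtor2 (r = 0.80 to 0.83), Sgcd to Ptpn9, Cd79b and Olfr1164 (r = 0.80 to 0.83), and Sspn to Akap6, Mrpl18 and Rnf26 (r = 0.89).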

How the data were processed

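Total RNA, 600 ng with spike-in RNA, was amplified, labelled with Cy3 and hybridised to 1 array per muscle, per the labels' protocols. Spot intensity in the deposited files is linear, was written by the scanner software (Agilent Feature Extraction, version 9.1.3.1, per the file headers) and was not scaled between arrays. A deposited value table of the series holds the same intensity and served as an alternative.

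Each array was scaled to the 75th percentile of its processed intensity over noncontrol spots, then log2-transformed, with replicate spots averaged per probe. A probe was kept if some group had it well above background in 4 or more of its 5 arrays. A fit of 4 group means over all 20 arrays was made by lmFit and eBayes of limma 3.58.1 (R 4.3.3, tables read with version 1.17.8 of data.table), two-sided, with Benjamini-Hochberg adjustment over all 37372 kept probes and a threshold of 0.05. The comparisons were HLS against control in each muscle, the difference of these, and soleus against gastrocnemius in each condition. The fit was tested on simulated data with known changes. Each replicate is 1 animal; the number of arrays limits the precision.

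All probes of the members were analysed. From each of the 3 pathway lists up to 3 passing genes at each end were named per comparison, or 2 with the lowest p where none passed, and for each member the 3 genes of highest Pearson r. Some list genes that this rule picks are not reported here. The members and lists were chosen with earlier results of these data known. Alternatives were normexp background correction (offset 50), quantile normalization, the value table, other filters, 1 probe per gene, fewer arrays, slide, scan day, animal or replicate number as a block, and leaving out each array; values within 1 slide or scan day were added after the data had been seen. The labels give both muscles of an animal 1 number, and the paired muscles' deviations from their group means had a correlation of -0.34 to 0.17 (median 0.03, 10 animals). Promoter windows are RefSeq sequences of GRCm38.p6, and figures were drawn with matplotlib 3.10.9.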

Additional observations from a re-analysis of the deposited data

Results flagged for a closer look

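Of 80 sets of 5 arrays, 1 for each of the 20 probes in each group, 4 held an array far from the other 4 by Dixon's criterion (a gap above 0.71 of the range), and chance marks about 1 set in 20. Gastrocnemius control 5 stood at 1.49 on the main Dag1 probe, against 2.20 to 2.44 on the other gastrocnemius controls. Gastrocnemius control 4 stood at -4.16 on the Utrn probe A_52_P557113, against -3.40 to -3.15, and without it the higher soleus level of that probe in controls lost its call. Gastrocnemius control 3 stood at -0.57 for Nos1, against -0.39 to -0.33, and this array was still above all soleus arrays. Soleus HLS 5 stood at -1.88 on the Sgcb probe A_52_P144871, against -2.62 to -2.44.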

How the results depend on the processing

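The count of member probes past the threshold stayed at 0 for HLS against control in soleus and for the difference of responses under every alternative run, and at 0 in gastrocnemius except when only the arrays compared were fitted (1, a Utrn probe). Leaving out single arrays gave 0 to 0 in these comparisons. For soleus against gastrocnemius, the 6 member calls in controls became 3 with one probe per gene, where 8 probes were tested, and 1 with scan day as a fixed block (Nos1; the control arrays of each muscle share 1 scan day), and ranged from 4 to 7 without single arrays. The 4 calls after HLS became 2 with one probe per gene and ranged from 4 to 5 without single arrays. With the animal as a replicate block the counts were 0, 6 and 4 for the difference of responses, controls and HLS animals, and with the replicate number as a block 0 in soleus and 0 in gastrocnemius. The replicate block changed no call of a member or of a list gene named here; the glycosylation list's 1 call in gastrocnemius became 2 under it, and same-numbered HLS and control animals share only a number.

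No called member difference turned its sign, and 177 of 192 alternative values kept the call. Differences that turned sign were all uncalled apart from Prkg1 in controls (-3.4e-05 with scan day as a block), and the cause was not tested. With scan day as a fixed block, Sgcb gave 0.13 in soleus, 0.20 in gastrocnemius, -0.066 for the difference of responses, 0.35 between muscles of controls and 0.29 between muscles of HLS animals. Sgca then gave -0.27 for the difference of responses and 0.25 between muscles of controls, and Sspn 0.20 and -0.0027. In gastrocnemius Nos1 gave 0.023 and Utrn 0.028, and the difference of responses of Dpm3 was 0.011. With slide as a fixed block, Sgca gave -0.43 and Sgcb 0.048 in soleus, and Nos1 0.057, Utrn 0.072 and Sgcb 0.19 in gastrocnemius. The difference of responses was then -1.26 for Sgca, -0.14 for Sgcb, -0.11 for Dag1, 0.028 for Sspn and 0.032 for Dpm3. Slide as a fixed block could not be fitted between muscles, which share no slide. Without single arrays, Nos1 ranged from -0.047 to 0.027 and Utrn from -0.12 to 0.0033 in gastrocnemius, and the difference of responses from -0.051 to 0.39 for Sgca, -0.019 to 0.068 for Sgcd, -0.18 to 0.041 for Sspn and -0.12 to 0.18 for Sgcb.

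Over all probes, calls in soleus numbered 2025, against 896 with only the arrays compared, 980 with scan day and 25 with slide as a fixed block. In gastrocnemius they numbered 1057, against 63 and 18 with those blocks. The 12 calls of the difference of responses became 2 with scan day and 0 with slide, and ranged from 2 to 30 without single arrays, 30 being without soleus HLS 1. Calls in gastrocnemius ranged from 605 (without gastrocnemius control 2) to 848 without single arrays. The 12369 calls between muscles of controls became 2018 with scan day. In the gene lists, the 2 partner calls in soleus became 0 with only the arrays compared, scan day or slide, and the 3 glycosylation and 2 nitric oxide calls 0 with slide. The 1 call of each list in gastrocnemius became 0 with slide or scan day, and 3 for partners and 3 for glycosylation with quantile normalization. Between muscles of controls, scan day gave 1 partner call against 6, 0 glycosylation calls against 4 and 0 nitric oxide calls against 3, and quantile normalization gave 8 glycosylation calls and 1 nitric oxide call. In HLS animals, scan day gave 5 partner calls against 8 and 2 glycosylation calls against 4, and normexp gave 0 nitric oxide calls against 2. Probes not well above background on some arrays, such as the dim Sgcd probe, limit what signal can show.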
